A study of Mus musculus with 12 samples.

Results

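AG1478-treated keratinocytes of HGF-transgenic mice were compared with wild-type keratinocytes on 6 of the series' 12 microarrays, 3 of each group, across 15868 genes. The wild-type group held the 3 control arrays of primary keratinocytes, which build the epidermis, from FVB/N mice. The other group held 3 arrays of primary MT-HGF keratinocytes that were mock transduced, kept in 8% fetal bovine serum and treated for 24 h with AG1478, an inhibitor of the EGFR tyrosine kinase. MT-HGF is a line that carries a transgene for hepatocyte growth factor (HGF) under a metallothionein promoter. A group of 3 untreated MT-HGF arrays is used beside them, and the last group, RAS-transduced wild-type cells, entered only the shared estimate of spread. The wild-type and untreated MT-HGF labels name regular medium, a column step after Trizol extraction and a transduction note of 3 days that the RAS arrays carry too. The AG1478-treated arrays were extracted with Trizol, hybridised by a facility under another name, and had no vehicle-treated arrays used here. Transgene, inhibitor, mock transduction, medium, extraction and submission therefore cannot be told apart in the comparison with wild type. The comparison of treated with untreated MT-HGF arrays crosses the same boundary. All of these but the transgene cannot be told apart there either, wherever treated and untreated cells are compared below.

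HGF is the ligand of MET, a receptor tyrosine kinase of epithelial cells. The series' title concerns MET signalling in mouse epidermis and its activation of EGFR, the receptor through which keratinocytes respond to ligands such as TGF-alpha, heparin-binding EGF and epiregulin. EGFR drives the ERK kinases and is known to hold keratinocytes in a proliferative state, while blocking it favours expression of the early differentiation keratins K1 and K10. The comparison gives the expression profile of HGF-transgenic cells under an EGFR kinase inhibitor, set against wild-type cells without it.

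Values are log2 RMA units, and a difference is one of group means with the standard error (SE) of limma's moderated fit to all 12 arrays, n = 3 arrays per group. A gene was called at a Benjamini-Hochberg adjusted p under 0.05. Each array's background was the 95th percentile of 157 chemosensory receptor genes, which lay at 6.83 to 7.05 on the wild-type and 7.02 to 7.13 on the AG1478-treated arrays. A gene not above it on any array of 1 group and above it on all 3 of the other is given as a bound ("at least"), taken against the mean of these percentiles. Array medians were 6.77 to 6.84, and arrays correlated with their own group at 0.993 to 0.997. The wild-type replicates are labelled biological and the treated ones only numbered, and the labels do not name separate animals or cultures. The p-values therefore measure the spread from array to array alone, and that spread may be technical.

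AG1478-treated MT-HGF cells were higher than wild type in 2663 genes (16.8%) and lower in 4151 (26.2%), and 434 and 158 of these differed at least 2-fold. Untreated MT-HGF cells against the same wild-type arrays had 2707 genes higher (17.1%) and 3789 lower (23.9%), 491 and 189 at least 2-fold. AG1478-treated against untreated MT-HGF cells had 1043 higher (6.57%) and 1572 lower (9.91%), 58 and 47 at least 2-fold. Counts of list members given below are to be read beside the shares over all genes of the same comparison. The 3 comparisons share arrays, so their values for a gene stand side by side below and are not independent. The median difference over all genes was 0.0036, -0.0315 and 0.0189 in the same order.

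**Figure D1:**
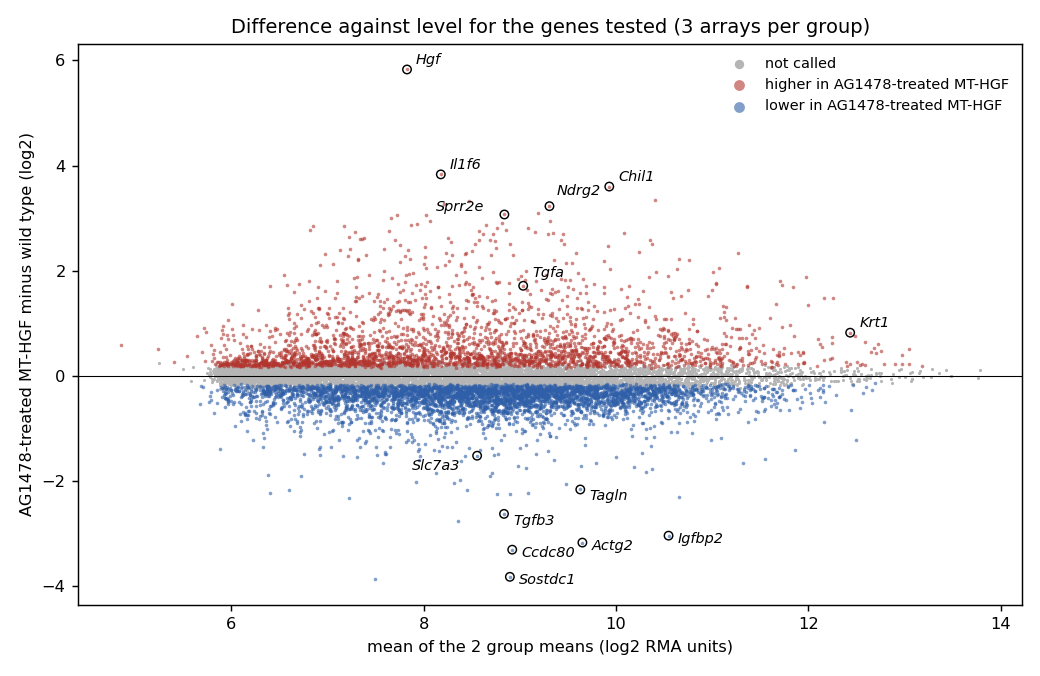
Difference between AG1478-treated MT-HGF and wild-type keratinocytes (vertical axis, log2) against the mean of both groups (horizontal axis, log2 RMA units) for the 15868 genes tested, with the fitted difference also where a group lay below background. Called genes are coloured (2663 higher in red, 4151 lower in blue), and circled genes are described in the text; most called differences are under 1 log2 unit, and Hgf stands at the top.

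The transgene product was read first. Hgf was at 4.85, 4.96 and 4.93 on the wild-type arrays, 10.59, 10.72 and 10.73 on the untreated MT-HGF arrays and 10.77, 10.80 and 10.66 on the AG1478-treated arrays. It was not above background in any wild-type array and was at least 13.9-fold higher in the treated cells (bound 3.80 log2 units, adjusted p = 2.89e-16). Treated and untreated MT-HGF arrays differed by 0.06 (95% interval -0.14 to 0.26, adjusted p = 0.688). The 9 keratinocyte markers averaged 12.11 to 12.15 on the wild-type and 12.13 to 12.17 on the treated arrays. The basal keratins Krt5 (0.00, 95% interval -0.13 to 0.14) and Krt14 (-0.02, 95% interval -0.14 to 0.11) were not called.

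The largest rises among genes above background on all 6 arrays were in genes of different roles. Chil1, which encodes a chitinase-like secreted protein, was at 7.93, 8.15 and 8.30 in wild type, 9.18, 9.29 and 9.30 in untreated MT-HGF cells and 11.82, 11.56 and 11.80 after AG1478. No treated array came near the wild-type range, and the untreated arrays lay between. Chil1 was 12.1-fold higher than wild type (3.60 ± 0.093 log2 units, adjusted p = 1.02e-13), with 1.13 of difference already in untreated cells and 2.47 between treated and untreated cells. The gene 2610528A11Rik was 10.1-fold higher, and Ndrg2 9.36-fold. Degs2, a desaturase and hydroxylase of ceramide synthesis, was at 7.60, 7.59 and 7.72 against 10.70, 10.68 and 10.83 and so 8.57-fold higher. It differed by 4.0 in untreated cells and by -0.90 between treated and untreated cells.

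Further large rises included lipid and barrier enzymes. The alkaline ceramidase gene Acer1 rose by 2.77 ± 0.124, the aldehyde oxidase gene Aox4 by 2.81 ± 0.102 and the epoxide hydrolase gene Ephx3 by 2.72 ± 0.117 log2 units. Among genes below background in wild type, the potassium channel gene Kcnn4 was at least 7.47-fold, the mucin gene Muc15 at least 6.12-fold and the epithelial sodium channel subunit gene Scnn1a at least 5.10-fold higher. Tmem229b had 2 kept transcript clusters, which differed by 2.95 and 1.74.

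The EGFR ligand list, of factors that bind ErbB receptors after shedding from the cell surface, also holds neuregulin genes. It had 4 of 8 tested members higher than wild type and 1 lower (16.8% and 26.2% over all genes), with a median of 0.19. The higher members were Tgfa, Hbegf and the neuregulin genes Nrg1 and Nrg2. Untreated MT-HGF cells had 7 higher and 0 lower with a median of 1.03, and treated against untreated cells had 0 higher and 6 lower with a median of -0.65. Tgfa, encoding TGF-alpha, was at 8.15, 8.16 and 8.22 in wild type, 10.46, 10.48 and 10.52 in untreated and 9.86, 9.97 and 9.84 in treated MT-HGF cells. All 3 treated arrays lay above every wild-type array and below every untreated one. Tgfa was 3.28-fold higher than wild type (1.71 ± 0.076, adjusted p = 2.20e-11), against a difference of 2.31 in untreated cells. Hbegf, for heparin-binding EGF, was at 8.98, 9.05 and 9.04, then 11.29, 11.35 and 11.18 untreated and 9.96, 9.88 and 9.28 treated, so that 1 treated array stood below the other two. Its difference from wild type was 0.68 ± 0.132 (adjusted p = 4.70e-04).

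Ereg, for epiregulin, overlapped wild type: it was at 8.25, 8.27 and 8.06 in wild-type and 8.55, 8.25 and 7.95 in treated cells, against 9.84, 9.96 and 9.92 in untreated MT-HGF cells. Its difference from wild type was 0.05 (95% interval -0.19 to 0.29, adjusted p = 0.738). Betacellulin, from Btc, was above background only on the untreated MT-HGF arrays. Epigen, from Epgn, was at 11.69, 11.62 and 11.63 in wild type and 11.11, 11.24 and 11.22 after treatment and fell by 0.45, while untreated cells were 0.25 above wild type. The neuregulin gene Nrg1, whose product binds ErbB3 and ErbB4, rose by 0.39 ± 0.063. The call of Nrg2 (0.25) was lost without wild-type replicate 2 or 3 or treated replicate 1 or 3.

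Of 14 ErbB receptor genes and their regulators, 7 were higher and 3 lower, beside 16.8% and 26.2% over all genes. Erbb3, a receptor with little kinase activity of its own that pairs with ErbB2, was at 9.88, 10.06 and 10.10 in wild type and 10.95, 10.98 and 10.80 in treated cells and rose by 0.90 ± 0.076 (adjusted p = 6.24e-08). Erbb2, the partner receptor without a known ligand, rose by 0.67 ± 0.064, with 0.19 in untreated cells. Both genes were also higher in treated than in untreated cells, by 0.33 and 0.48. Egfr itself was at 10.58, 10.61 and 10.60 in wild type and 10.37, 10.36 and 10.13 in treated cells and was lower by a small margin (-0.31 ± 0.073, adjusted p = 0.00271). The feedback inhibitor genes Lrig1 and Errfi1 rose by 0.57 and 0.51, and Cbl, for a ubiquitin ligase that acts on active EGFR, was at -0.57.

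The HGF and MET pathway list had 4 of 14 members higher and 1 lower, beside 16.8% and 26.2% over all genes. Met was at 9.59, 9.59 and 9.59 on wild-type and 9.65, 9.68 and 9.38 on treated arrays, a difference of -0.02 (95% interval -0.19 to 0.16), while untreated MT-HGF cells were 0.35 above wild type. Mst1r, which encodes RON, a receptor related to MET, rose by 0.35, and its ligand gene Mst1 by 0.39. The adaptor gene Gab1, whose product links MET to downstream kinases, was at 0.01 and not called; it was -0.54 against wild type in untreated cells. Rapgef1 was at -0.60, but its second cluster was at 0.14.

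Genes that respond to or restrain the ERK kinases were mixed against wild type. Of 28 such genes 10 were higher and 6 lower (16.8% and 26.2% over all genes), with a median of 0.08. In untreated MT-HGF cells 21 were higher and 3 lower (median 0.46), and treated against untreated cells had 2 higher and 17 lower (median -0.37). Dusp4 and Dusp6 encode phosphatases that act on ERK. Dusp4 was at 7.99, 7.95 and 8.00 in wild type, 9.05, 9.12 and 9.29 in untreated and 8.15, 7.98 and 7.89 in treated cells; treated and wild-type arrays overlapped, with a difference of 0.02 (95% interval -0.15 to 0.19). Dusp6 was at 9.58, 9.55 and 9.63 in wild type, 10.47, 10.49 and 10.39 untreated and 9.55, 9.25 and 9.11 treated. Its treated arrays were all below every untreated array, and 1 of them lay within the wild-type range (-0.28, adjusted p = 0.0253, a call lost without wild-type replicate 3 or treated replicate 2 or 3, and with array weights).

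Other members of the ERK list stayed above wild type. Egr3, an immediate-early transcription factor gene, was at 8.18, 8.04 and 8.19 in wild type, 9.45, 9.55 and 9.65 in untreated and 9.89, 9.84 and 10.15 in treated cells. It was 3.54-fold higher than wild type (1.82 ± 0.084, adjusted p = 3.45e-11) and also higher than in untreated cells by 0.41. Dusp5 rose by 0.87, Phlda1 by 0.80 and Fos by 0.63, each lower than its difference in untreated cells (1.59, 1.43 and 1.67). On the lower side were the Sprouty and Spred feedback inhibitor genes Spry4 (-0.72), Spred1 (-0.52), Spred2 (-0.43) and Spry2 (-0.34), and Myc (-0.66). The motif TGANTCA, read by AP-1 factors such as Fos and Jun, was in the 250 bases before the start of 1 of 16 ERK-list genes with a promoter entry (6.2%), against 7.82% of all 27025 genes.

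**Figure D2:**
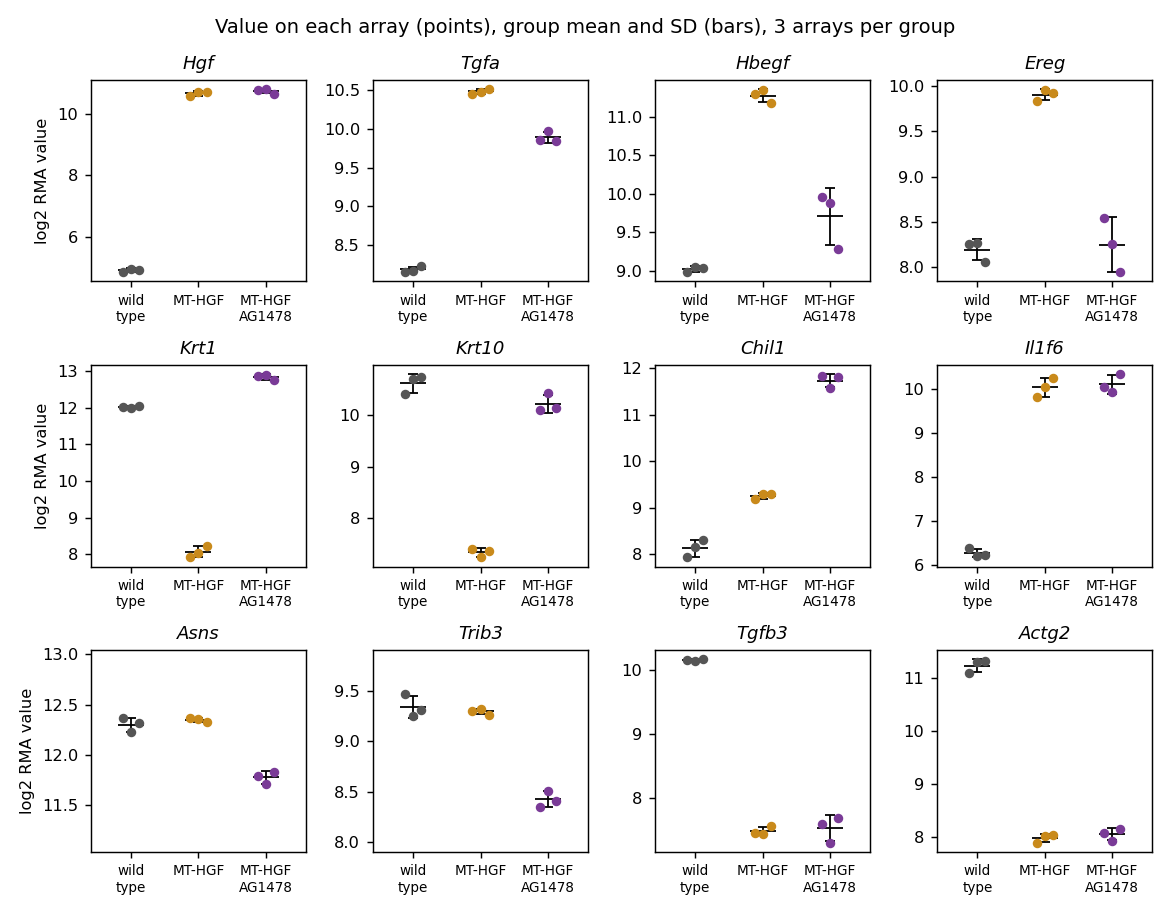
Log2 RMA value of 12 genes (vertical axes) on each of 3 arrays per group for keratinocytes of wild type and of MT-HGF, untreated or AG1478-treated, with the group mean and SD as bars. Treated arrays of Ereg overlap wild type, those of Tgfa lie between the other groups, those of Il1f6, Tgfb3 and Actg2 overlap the untreated arrays, and those of Asns and Trib3 lie below both.

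Keratinocyte differentiation genes were mostly higher. Keratins K1 and K10 form the filament pair of the spinous layer, the first layer above the basal cells. Krt1 was at 12.03, 12.01 and 12.04 on wild-type arrays, 7.93, 8.04 and 8.23 on untreated MT-HGF arrays and 12.87, 12.91 and 12.75 on treated arrays. The treated arrays lay above every wild-type array (0.82 ± 0.130, adjusted p = 7.22e-05), while untreated cells stood 15.5-fold below wild type. Krt10 was at 10.42, 10.71 and 10.76, then 7.39, 7.22 and 7.34 untreated and 10.11, 10.44 and 10.15 treated. Treated and wild-type arrays of Krt10 overlapped, and its call (-0.40 ± 0.132, adjusted p = 0.0222) was lost without wild-type replicate 2 or 3 or treated replicate 1 or 3. The acyl-CoA thioesterase gene Them5 had the same order of groups as Krt1, at 9.61, 10.31 and 10.22, 7.90, 8.31 and 8.41 and 12.09, 12.14 and 12.04.

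The spinous list, with 11 of 14 higher and 1 lower (median 0.76), also held genes that differed little from wild type in untreated cells. Calml3, for a calmodulin-like protein, was at 7.19, 7.18 and 7.14 in wild type, 6.87, 7.0 and 7.27 untreated and 8.50, 8.52 and 8.26 treated and rose by 1.26 ± 0.116. The keratin gene Krt77 had a like pattern, with 1.25 ± 0.098 against wild type and -0.05 in untreated cells. The desmosomal cadherin gene Dsc2 was 3.57-fold and the transglutaminase gene Tgm1 2.10-fold higher than wild type. Involucrin, from Ivl, was 0.10 from wild type (95% interval -0.06 to 0.26) and not called, against 0.74 in untreated cells.

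Granular and cornified layer genes build the protein and lipid barrier of the outermost epidermis. Of 29 tested, 28 were higher and 0 lower, with a median of 1.37. The same list had 27 higher and 0 lower in untreated cells (median 1.31) and 9 higher and 9 lower between treated and untreated cells (median -0.11). Tgm3, a transglutaminase that crosslinks the cornified envelope, was at 7.47, 7.26 and 7.35 in wild type, 8.99, 9.15 and 9.45 in untreated and 10.05, 10.30 and 10.17 in treated cells, with no overlap among the groups. It was 7.02-fold above wild type (2.81 ± 0.113, adjusted p = 6.96e-12).

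Within that list, members differed in how treated and untreated cells compared. The envelope genes Rptn, Casp14, Hrnr and Cdsn were higher in treated than in untreated cells, by 1.04, 0.58, 0.90 and 0.40. Loricrin, from Lor, was at 8.51, 8.64 and 8.74 in wild type and 10.52, 10.90 and 10.33 in treated cells and was 3.88-fold higher. The lipid barrier genes Alox12b, Aloxe3, Abca12, Cers3 and Ugcg were lower in treated than in untreated cells, by 0.89, 0.49, 0.33, 0.35 and 0.62. All 5 were still above wild type, Alox12b, an arachidonate lipoxygenase, by 1.79 and Ugcg, a glucosylceramide synthase, by 0.68. The kallikrein protease genes Klk6 and Klk7 were 4.65-fold and 3.20-fold above wild type.

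Late cornified envelope and small proline-rich genes had 25 of 28 higher and 0 lower (median 1.15), with 26 and 0 in untreated cells (median 1.44) and 2 higher and 16 lower between treated and untreated cells (median -0.33). Sprr2e was at 7.39, 7.23 and 7.30 in wild type and 10.35, 10.30 and 10.47 in treated cells, 8.39-fold higher. Lce3a was at least 1.37-fold above wild type, and treated cells were 2.42 log2 units below untreated ones. Sprr2b went the other way, at 8.87, 8.90 and 8.93 in wild type, 8.82, 9.0 and 9.16 untreated and 10.53, 10.41 and 10.49 treated. Members of the Sprr2 and Lce families are close in sequence and may share probes, so values of single members are uncertain.

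Keratins of the wound and stress list and of simple epithelia were mostly higher. The wound and stress list had 8 of 10 higher and 0 lower, led by Krt23 (at least 3.37-fold) and Krt78 (2.63-fold). Krt17 and Krt6a were not called (-0.01 and -0.06). The call of Krt16 was lost without wild-type replicate 2 or treated replicate 2 and on a second quantile normalization. That of Krt13 was lost without wild-type replicate 2 or 3 or treated replicate 3. The 4 simple epithelial keratins tested were all higher; Krt18 was at 7.46, 7.29 and 7.39 against 9.33, 9.16 and 9.41 (3.78-fold). Basal layer genes had 3 of 16 higher and 4 lower, near the shares over all genes (16.8% and 26.2%), and a median of 0.00. The collagen-binding integrin gene Itga2 rose by 1.25 ± 0.072, and Krt15, a basal keratin, was at 7.09, 7.08 and 7.20 in wild type, 7.05, 7.05 and 6.98 untreated and 7.70, 7.97 and 7.80 treated, so that only treated arrays stood apart. Dst, which encodes a hemidesmosome linker, fell by 1.00, and Itgb1 and Itgb4 by 0.31 and 0.26.

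**Figure D3:**
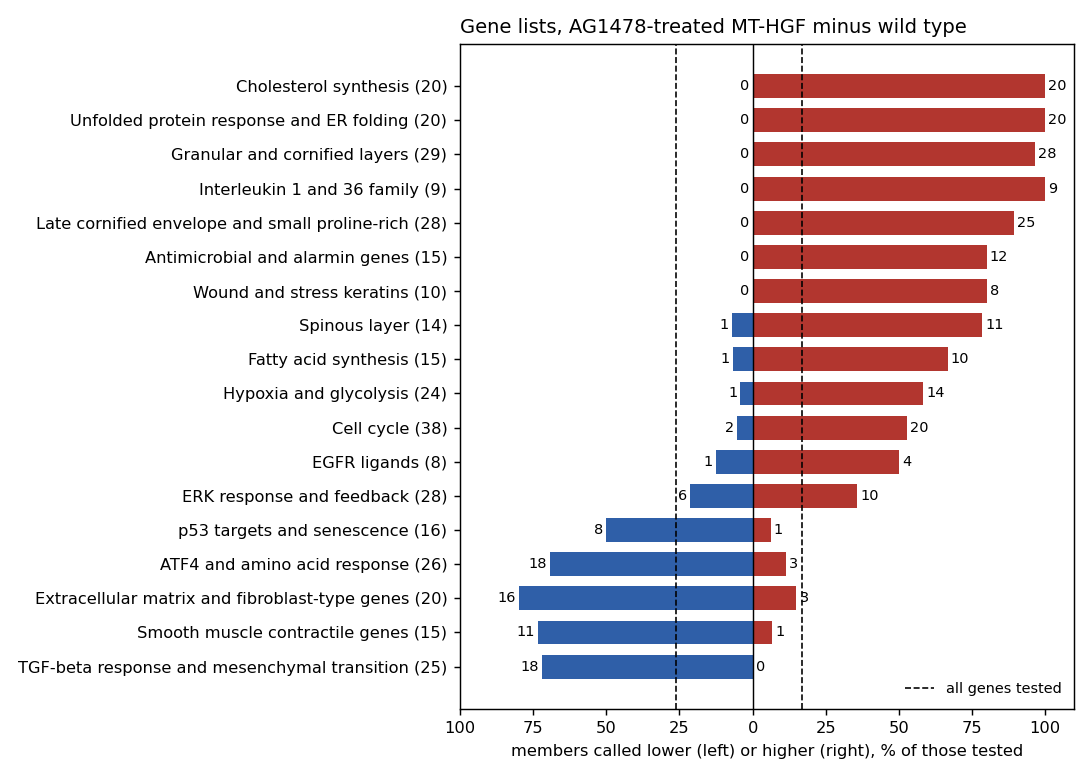
Share of the tested members of 18 gene lists (vertical axis, number tested in brackets) called lower (left, blue) or higher (right, red) in AG1478-treated MT-HGF than in wild-type cells, with the number called at each bar. Dashed lines mark the shares over all genes, 26.2% lower and 16.8% higher; cholesterol, unfolded protein and cornified lists lie to the right, and amino acid, smooth muscle and matrix lists to the left.

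The interleukin 1 and 36 cytokines, epithelial alarm signals that act on neighbouring and immune cells, were higher for 9 of 9 tested (median 1.87). Untreated cells had 8 higher and 1 lower (median 1.93), and treated against untreated cells 1 higher and 3 lower (median 0.02). Il1f6, now also called IL-36 alpha, was at 6.37, 6.19 and 6.23 in wild type, 9.80, 10.04 and 10.24 in untreated and 10.03, 9.92 and 10.33 in treated cells. It was not above background in wild type and was at least 8.87-fold higher under treatment (adjusted p = 2.05e-13), while treated and untreated cells differed by 0.07 (95% interval -0.17 to 0.30). Il1f9 rose by 2.33 ± 0.067, with 2.31 in untreated cells. Il1a, at 9.38, 9.35 and 9.49 in wild type, 12.01, 12.13 and 12.07 untreated and 11.20, 11.21 and 11.42 treated, lay between. Il18 was the member below wild type in untreated cells (-0.63) and above it under treatment (1.31).

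Antimicrobial and alarmin genes had 12 of 15 higher and 0 lower (median 1.74, against 1.09 in untreated cells). Lcn2, which encodes an iron-sequestering lipocalin, was at 6.10, 6.18 and 6.20 in wild type, 7.76, 7.68 and 7.76 untreated and 9.16, 8.91 and 9.42 treated. It was at least 4.66-fold above wild type and 1.43 above untreated cells. The calprotectin genes S100a8 and S100a9 rose by 2.29 and 2.05 and were lower than in untreated cells by 0.77 and 0.84. S100a9 was above background on 2 of 3 wild-type arrays. Defensin genes went both ways: Defb14 fell by 1.88 from untreated to treated cells and Defb6 rose by 1.22, while both were above wild type (at least 2.79-fold and 2.08-fold). Single defensin genes may share probes.

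Chemokines and other cytokines had 12 of 23 higher and 3 lower (median 0.22). Neutrophil chemokine genes led, with Cxcl5 at least 2.50-fold and Ppbp 6.52-fold higher. Tslp, for a keratinocyte cytokine that acts on dendritic cells, was at 10.81, 10.92 and 10.99 in wild type, 10.74, 10.99 and 10.96 untreated and 9.98, 10.01 and 10.07 treated. Wild-type and untreated arrays overlapped, and the treated arrays were lower by 0.89 (adjusted p = 1.71e-07). The macrophage growth factor gene Csf1 fell by 1.26. Feedback targets of NF-kappaB had 8 of 11 higher and 1 lower; Tnfaip2 was 4.28-fold higher, and Birc3 was at 0.55 against 0.05 in untreated cells.

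The list of TGF-beta response and mesenchymal genes was largely lower, with 0 of 25 higher and 18 lower and a median of -0.63. Untreated cells had 2 higher and 18 lower (median -0.55), and treated against untreated cells had 4 higher and 5 lower (median 0.04). Tgfb3, a TGF-beta ligand gene, was at 10.15, 10.13 and 10.16 in wild type, 7.45, 7.43 and 7.56 in untreated and 7.58, 7.30 and 7.68 in treated cells, so that both MT-HGF groups overlapped. It was 6.19-fold below wild type (-2.63 ± 0.101, adjusted p = 4.23e-12), with 0.04 between treated and untreated cells (95% interval -0.17 to 0.26). The matrix genes Ccn2 and Fn1, typical TGF-beta targets, fell by 1.74 and 1.19. Id1, a target of BMP signalling, was not called (0.01) and stood 0.80 above untreated cells.

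Smooth muscle contractile genes had 1 of 15 higher and 11 lower (median -0.43). Actg2, a smooth muscle actin gene, was at 11.10, 11.30 and 11.32 in wild type, 7.90, 8.02 and 8.04 untreated and 8.08, 7.94 and 8.17 treated, 9.03-fold below wild type (adjusted p = 2.05e-13). The myosin light chain gene Myl9 was at 11.65, 11.87 and 11.89 in wild type against 9.19, 9.38 and 9.54 untreated and 9.53, 9.36 and 9.60 treated, 4.94-fold lower than wild type. Tagln and Acta2 fell by 2.16 and 1.59. The CArG box, the site read by serum response factor, was found on either strand in the 250 bases before the start of 2 of 12 list genes with a promoter entry (16.7%), against 1.62% of all genes. These were Cnn2, which was not called (-0.14), and Myl9. The Myl9 promoter is shown for the size of its fall, with the CArG box in capitals. The match begins 161 bases before its start (RefSeq, GRCm38.p6, chr2:156775214-156775463, plus strand).
Myl9: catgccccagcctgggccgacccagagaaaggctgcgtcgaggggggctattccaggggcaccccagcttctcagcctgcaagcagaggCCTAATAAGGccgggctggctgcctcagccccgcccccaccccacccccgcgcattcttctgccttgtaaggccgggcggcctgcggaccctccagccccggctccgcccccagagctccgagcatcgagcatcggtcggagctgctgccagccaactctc

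Extracellular matrix and fibroblast-type genes had 3 of 20 higher and 16 lower (median -0.53), with 3 and 17 in untreated cells (median -0.71). Ccdc80, for a secreted matrix protein, was at 10.56, 10.60 and 10.57 in wild type, 7.17, 7.21 and 7.27 untreated and 7.34, 7.30 and 7.16 treated. It was 9.92-fold below wild type (-3.31 ± 0.075, adjusted p = 3.12e-14). Lox, the lysyl oxidase that crosslinks collagen, was at 9.73, 9.75 and 9.74 against 6.93, 7.12 and 6.89, 6.77-fold lower, with 1 of 3 treated arrays above background. Col1a1 and Col1a2, the chains of type I collagen, fell by 0.53 and 0.52. Decorin, from Dcn, went against the list, at 8.39, 8.59 and 8.67 in wild type and 10.01, 10.05 and 10.27 in treated cells (2.94-fold higher).

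Markers of other cell types were read beside these lists, and not all of them were lower. The mean level of 9 fibroblast markers was 8.42 to 8.49 on the wild-type, 8.15 to 8.24 on the untreated MT-HGF and 8.19 to 8.21 on the treated arrays; 3 were higher and 6 lower than wild type, and all but Postn stand in the matrix list too. The 8 melanocyte markers, all above background, averaged 9.98 to 10.17, 9.69 to 9.87 and 9.73 to 9.82, with 0 higher and 5 lower, Mlana (-0.67) and Pmel (-0.56) among them. Of 5 leukocyte markers, which averaged 7.10 to 7.26 on wild-type and 6.85 to 7.06 on treated arrays, Cd68 was higher by 1.12 and the myeloid gene Lyz2 was at 8.27, 7.32 and 7.47 in wild type and not above background on any treated array. The defining leukocyte genes Ptprc and Itgam were not above background in either group, nor were the 3 endothelial markers. In RNA of whole cultures fewer cells of a type and less RNA per cell cannot be told apart, and the part of these cells in the falls was not tested.

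The growth factor and antagonist genes included some of the steepest falls. Igfbp2, which encodes a binding protein of insulin-like growth factors, was at 12.02, 12.06 and 12.12 in wild type, 7.64, 7.63 and 7.76 untreated and 8.98, 9.12 and 8.97 treated. Treated arrays were 8.25-fold below wild type and 1.35 log2 units above untreated ones, with no overlap among the groups. Sostdc1, whose secreted product holds back BMP and Wnt signals, was at 10.30, 11.07 and 11.06 in wild type and 6.88, 7.06 and 7.01 in treated cells, -3.83 ± 0.157 against wild type, with 1 of 3 treated arrays above background. The stress-response gene Gadd45g was 4.76-fold lower, the protease gene Adamts1 4.73-fold lower, and the growth factor gene Pdgfc at least 3.65-fold lower.

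Matrix proteases and plasminogen activation genes had 13 of 21 higher and 6 lower. Plau, for urokinase, was at 9.57, 9.65 and 9.79 in wild type and 10.88, 10.78 and 10.69 in treated cells, 2.16-fold higher. Plat, the other plasminogen activator gene, rose by 0.70. The metalloprotease inhibitor genes Timp1 and Timp3 fell by 1.38 and 1.66. Among collagenase and stromelysin genes, Mmp13 and Mmp10 were called higher (0.77 and 0.40), with 1 of 3 treated arrays above background for each.

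Genes of the amino acid response were mostly lower than in wild type and, for nearly all, lower than in untreated cells. ATF4 is a transcription factor that is translated more when amino acids are short or the endoplasmic reticulum is stressed, and it drives amino acid transporters, synthetases and tRNA ligases. Of 26 list members, 3 were higher than wild type and 18 lower (median -0.35). Untreated MT-HGF cells had 13 higher and 2 lower (median 0.20), and treated against untreated cells had 0 higher and 25 lower (median -0.56). The treated arrays alone had the separate submission, medium and extraction, whose part in these values was not tested.

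The promoters of 3 lower members of this list with letters of the ATF4 and CEBP composite site are shown as 250 bases before the start (RefSeq, GRCm38.p6). Whether the site has a part in their fall was not tested. The site was searched as TGATGNAA on either strand and stands in capitals. It lies 23 bases before the start in Asns (chr6:7693210-7693459, minus strand), 30 in Gars (chr6:55037751-55038000, plus strand) and 200 in Vldlr (chr19:27216770-27217019, plus strand). Of 21 list genes with a promoter entry 5 held the motif (23.8%), against 3.91% of all 27025 genes and 3.45% of 32851 promoters; the other two, Atf3 and Chac1, were higher than wild type, the call of Chac1 being lost without wild-type replicate 3 or treated replicate 1 or 3. A match describes letters and is not evidence of binding.
Asns: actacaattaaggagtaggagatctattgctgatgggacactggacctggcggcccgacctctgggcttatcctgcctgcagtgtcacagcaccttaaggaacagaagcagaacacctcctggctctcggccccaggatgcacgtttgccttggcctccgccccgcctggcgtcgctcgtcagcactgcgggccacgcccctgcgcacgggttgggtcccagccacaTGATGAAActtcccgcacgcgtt
Gars: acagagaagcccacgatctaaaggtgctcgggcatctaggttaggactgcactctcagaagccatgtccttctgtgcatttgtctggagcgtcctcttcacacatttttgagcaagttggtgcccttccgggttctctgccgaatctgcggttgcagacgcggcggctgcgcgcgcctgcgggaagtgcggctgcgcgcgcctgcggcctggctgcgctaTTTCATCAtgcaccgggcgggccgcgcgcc
Vldlr: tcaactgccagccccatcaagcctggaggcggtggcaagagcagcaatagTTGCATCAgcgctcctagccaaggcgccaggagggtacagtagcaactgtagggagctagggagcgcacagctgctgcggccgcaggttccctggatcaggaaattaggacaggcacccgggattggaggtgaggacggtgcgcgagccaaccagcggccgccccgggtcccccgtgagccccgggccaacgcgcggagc

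Asns, the asparagine synthetase gene, was at 12.36, 12.22 and 12.31 in wild type, 12.37, 12.36 and 12.33 in untreated and 11.79, 11.71 and 11.83 in treated cells. Wild-type and untreated arrays lay together and the treated arrays below them (-0.52 ± 0.063 against wild type, adjusted p = 4.16e-06). Trib3, which encodes a pseudokinase induced by ATF4, was at 9.46, 9.25 and 9.31, 9.30, 9.32 and 9.26 and 8.35, 8.51 and 8.41 in the same order, 1.89-fold below wild type. The neutral amino acid transporter gene Slc1a4 fell by 0.98 and Slc7a5, the light chain gene of a large neutral amino acid transporter, by 0.50. The glycyl-tRNA ligase gene Gars fell by 0.48 and the lipoprotein receptor gene Vldlr by 0.71.

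Some members of the amino acid list had been above wild type in untreated cells. Psph, the last enzyme of serine synthesis, was at 9.09, 9.23 and 9.24 in wild type, 9.74, 9.61 and 9.72 untreated and 8.69, 8.71 and 8.68 treated, so that the groups stood on either side of wild type. Stc2 and Cth, for stanniocalcin and for the cystathionine lyase that makes cysteine, were at -0.41 and -0.34 against wild type, and at 1.02 and 1.40 in untreated cells. Outside the list, the cationic amino acid transporter gene Slc7a3 (-1.52, with 0.41 in untreated cells) and the branched-chain aminotransferase gene Bcat1 (-0.72, with 0.51) had the same pattern. Atf4 itself was -0.15 from wild type and not called (adjusted p = 0.0935).

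**Figure D4:**
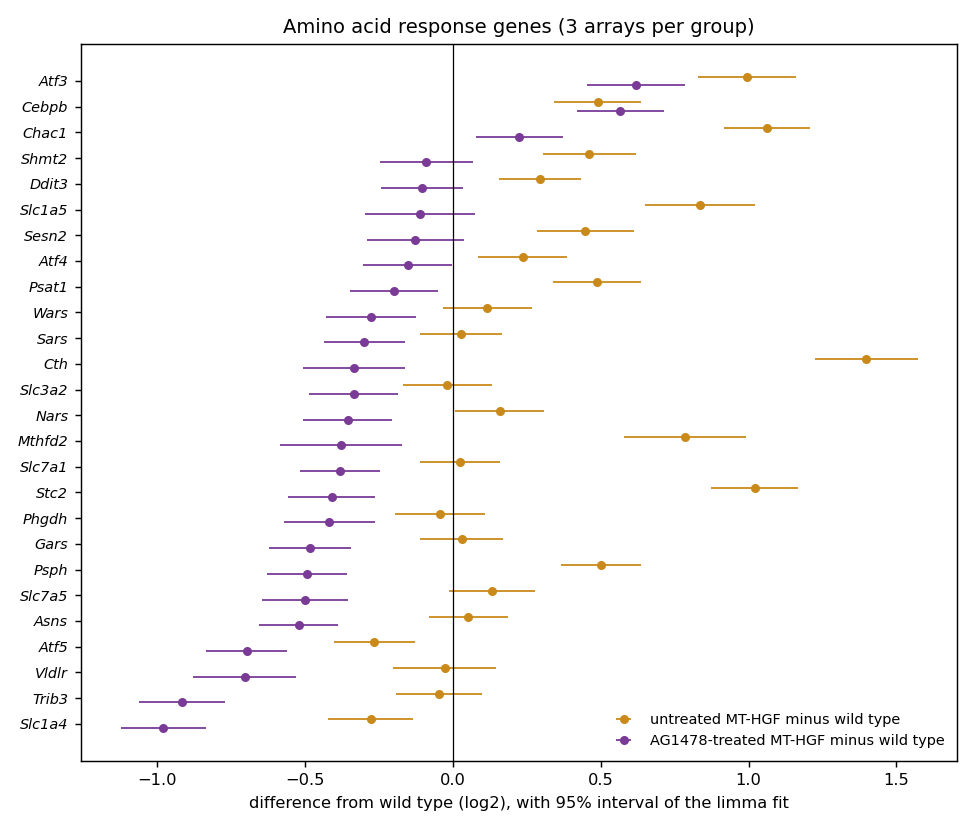
Difference from wild type (horizontal axis, log2, with the 95% interval of the limma fit) of 26 amino acid response genes in untreated (orange) and AG1478-treated (purple) MT-HGF keratinocytes, 3 arrays per group. The purple point lies left of the orange one for all but Cebpb.

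Genes of the unfolded protein response, which raises chaperones of the endoplasmic reticulum, were higher. Of 20 members tested 20 were higher than wild type (median 0.56), as were 20 in untreated cells (median 0.72). Derl3, of the machinery that exports misfolded proteins, was at 7.25, 7.08 and 7.21 in wild type, 8.91, 8.90 and 9.14 untreated and 9.42, 9.28 and 9.37 treated, 4.52-fold above wild type. Creld2 rose by 1.24 and the chaperone gene Hspa5, for BiP, by 0.41.

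Lipid synthesis genes were higher. Cholesterol synthesis, controlled by SREBP2, had 20 of 20 members higher and 0 lower (median 0.94), as in untreated cells (20 and 0, median 1.18); treated against untreated cells had 1 higher and 10 lower (median -0.26). Msmo1, a sterol demethylating enzyme, was at 9.77, 9.85 and 9.94 in wild type, 11.88, 11.85 and 11.84 untreated and 11.32, 11.39 and 11.31 treated, 2.80-fold above wild type. Cyp51 and Insig1 rose by 1.47 and 1.28. Fatty acid synthesis genes had 10 of 15 higher and 1 lower (median 0.44), with the desaturase genes Fads2 (5.02-fold), Scd2 (3.29-fold) and Scd1 (3.01-fold) highest. Fasn and Srebf1 were not called (0.11 and 0.12). The sterol element TCACNCCAC was in the 250-base promoter of 1 of 16 cholesterol genes with an entry (6.2%), against 1.22% of all genes; that gene was Hmgcs1, which rose by 0.62.

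Of 24 genes of hypoxia and glycolysis 14 were higher and 1 lower (median 0.24), and untreated cells had 19 higher and 1 lower (median 0.44). Egln3, a prolyl hydroxylase induced by low oxygen, was at 6.44, 6.65 and 6.66 in wild type, 9.59, 9.46 and 9.93 untreated and 9.59, 9.31 and 9.71 treated, at least 6.03-fold above wild type. Bnip3, for a mitophagy receptor, rose by 1.46 (1.12 for its second cluster) and the glucose transporter gene Slc2a1 by 0.64. Vegfa, at 9.22, 9.07 and 9.05 in wild type, 9.96, 10.18 and 9.90 untreated and 9.23, 9.17 and 9.35 treated, was not called (0.14, 95% interval -0.05 to 0.33). The core ACGTG of the hypoxia response element was found on either strand in 18 of 23 list promoters (78.3%), against 18.5% of all genes. Car9, Hk2, P4ha1, P4ha2, Pfkfb3, Pkm and Vegfa held the core and were not called, and the other carriers were higher. The promoters of Egln3, Bnip3 and Slc2a1 are shown for the higher members, with the core in capitals. In Egln3 (chr12:54203875-54204124, minus strand) the match lies 229 bases before the start. Bnip3 (chr7:138909507-138909756, minus strand) has overlapping matches on both strands at 108 and 107. Slc2a1 (chr4:119108495-119108744, plus strand) has a match at 36.
Egln3: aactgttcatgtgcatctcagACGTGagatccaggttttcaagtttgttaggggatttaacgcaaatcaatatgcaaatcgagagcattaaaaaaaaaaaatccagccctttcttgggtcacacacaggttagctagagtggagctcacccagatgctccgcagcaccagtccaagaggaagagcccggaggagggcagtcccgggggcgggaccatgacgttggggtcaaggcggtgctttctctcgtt
Bnip3: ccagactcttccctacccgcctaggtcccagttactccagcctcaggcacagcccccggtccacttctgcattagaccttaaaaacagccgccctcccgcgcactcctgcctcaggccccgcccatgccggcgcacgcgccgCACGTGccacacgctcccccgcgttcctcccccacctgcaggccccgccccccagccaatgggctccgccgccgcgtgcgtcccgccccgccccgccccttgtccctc
Slc2a1: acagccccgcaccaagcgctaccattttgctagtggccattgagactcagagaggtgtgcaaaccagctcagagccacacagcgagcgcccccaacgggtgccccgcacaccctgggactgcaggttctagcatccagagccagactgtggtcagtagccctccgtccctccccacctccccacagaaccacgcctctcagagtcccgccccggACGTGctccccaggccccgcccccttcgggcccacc

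**Figure D5:**
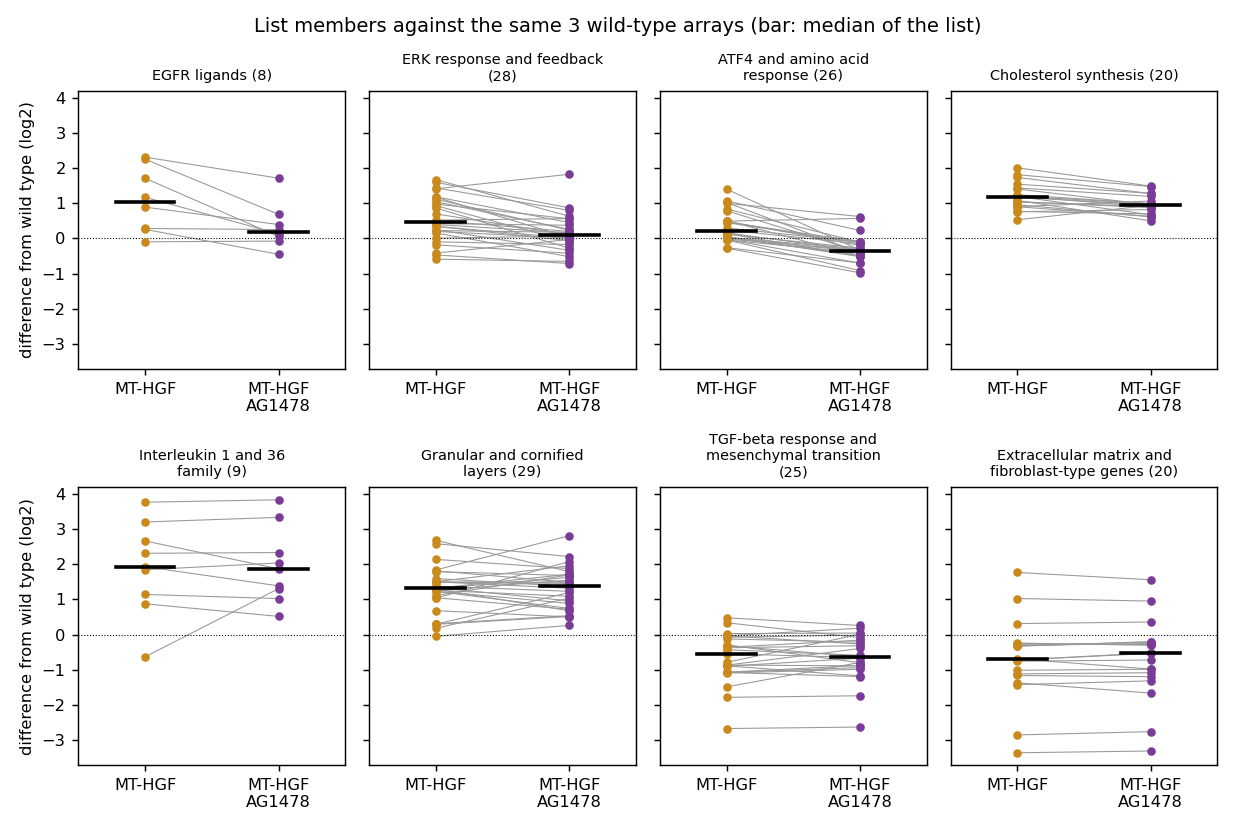
Difference from the same 3 wild-type arrays (vertical axis, log2) of each member of 8 gene lists in untreated and AG1478-treated MT-HGF cells, joined by lines, with the list median as a bar. The EGFR ligand list also holds neuregulin genes. Medians of EGFR ligands (1.03 and 0.19), ERK response (0.46 and 0.08) and the amino acid list (0.20 and -0.35) differ between the columns, while those of interleukin 1 and 36 genes (1.93 and 1.87) and of the TGF-beta list (-0.55 and -0.63) lie close.

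Of 38 cell cycle genes 20 were higher and 2 lower (1 lower whichever of the 6 arrays was left out; median 0.19), and untreated cells had 28 higher and 0 lower (median 0.35). Top2a, for the topoisomerase of dividing cells, was at 9.16, 9.15 and 9.30 in wild type, 10.06, 10.07 and 10.09 untreated and 9.91, 9.90 and 9.68 treated and rose by 0.62 ± 0.074. Cdk1 and Aurkb rose by 0.56 and 0.55. Ccnd1, the ERK-responsive cyclin D1 gene, was not called (-0.07), against 0.34 in untreated cells, and Ccne2 fell by 0.31. Targets of p53 and senescence genes had 1 of 16 higher and 8 lower (median -0.24), with Plk2 at -0.71, Phlda3 at -0.52 and Mdm2 at -0.47.

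Further lists gave smaller or mixed shifts. Retinoid metabolism had 9 of 14 higher and 2 lower, led by Crabp2, a retinoic acid carrier gene, at 8.68, 8.65 and 8.87 in wild type and 11.56, 11.42 and 11.35 in treated cells (6.53-fold). NRF2 and glutathione genes had 10 of 22 higher and 4 lower, beside 16.8% and 26.2% over all genes. The cystine transporter gene Slc7a11 was 4.43-fold higher and Gclc, for the catalytic subunit of glutathione synthesis, fell by 1.18. In the Notch pathway 3 of 14 were higher and 5 lower, near the shares over all genes (16.8% and 26.2%). Notch3 was at 0.99, Notch1 at -0.69 and the ligand gene Jag1 at -1.23. The metallothionein and zinc list, of interest because a metallothionein promoter drives the transgene, had 2 of 8 higher and 0 lower, and 1 higher without wild-type replicate 1 or treated replicate 2 or 3. Mt2 was at 12.46, 12.61 and 12.50 in wild type, 12.76, 12.78 and 12.77 untreated and 13.03, 13.01 and 12.94 treated. The metal response core TGCGCNC was in the 250-base promoters of 2 of 8 list genes (25%), against 14% of all genes.

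Placental prolactin family genes had 3 of 4 higher, but Prl7b1 was not above background on any array of either group and its call was lost on a second quantile normalization. Prl8a9, above background on 1 of 3 wild-type arrays, was 0.76 from wild type after 2.57 in untreated cells, and family members may share probes. Small nucleolar and micro RNA genes had 17 of 186 higher (10 without the second wild-type array) and 20 lower (13 without the third treated array), both below the shares over all genes (16.8% and 26.2%); Snora44 (1.29) rested on 2 of 3 treated arrays at 8.02, 9.78 and 9.98, against 8.12, 7.97 and 7.81 in wild type.

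Signalling lists outside EGFR were mixed, and their counts stand beside 16.8% higher and 26.2% lower over all genes. FOXO target genes, which FOXO factors drive when AKT is inactive, had 7 of 17 higher and 4 lower. Cdkn1b, for the cell cycle inhibitor p27, rose by 0.75, and Sesn1 and Pink1 were higher than wild type by 0.48 and 0.36 with -0.11 and -0.09 in untreated cells. Txnip, a glucose-responsive FOXO target, fell by 1.54. Without the third treated array only 4 FOXO targets were called higher. The IGF axis had 4 of 12 higher and 5 lower: Igfbp3 was 3.00-fold higher and Igfbp5 3.41-fold lower. BMP and Wnt antagonists and targets had 4 of 14 higher and 6 lower, with the Wnt antagonist gene Sfrp1 at 1.71 and the matricellular gene Ccn4 at -2.24.

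Junction, hair follicle, interferon and clock genes completed the lists. Claudins and tight junction genes had 9 of 16 higher and 0 lower; Cldn3 was at 7.92, 7.62 and 7.65 in wild type and 9.32, 9.17 and 9.36 in treated cells (2.93-fold higher), and Cldn7 rose by 1.32. Hair follicle and sebaceous genes had 8 of 19 higher and 7 lower, among them the keratin gene Krt79 (1.64) and the hair differentiation factor gene Hoxc13 (-1.35). Interferon response genes had 5 of 24 higher and 5 lower (each 3 without some single arrays, the first treated one in both cases), near the 16.8% and 26.2% of all genes, with Tap1, a peptide transporter gene of antigen presentation, at -0.48. Circadian clock genes had 3 of 15 higher and 6 lower, against the same shares, with Clock at -0.54.

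The rule for names also ranked genes above background on all arrays of the 3 groups that lay within 0.3 of wild type in untreated cells and differed at least 2-fold under treatment. Cyp2w1, an orphan cytochrome P450 gene, was at 7.17, 7.07 and 7.20 in wild type, 7.18, 7.16 and 7.08 untreated and 9.04, 8.90 and 8.86 treated, 3.45-fold above wild type (1.79 ± 0.075, adjusted p = 1.10e-11). Tchh, for trichohyalin of the hair follicle inner sheath, was at 7.91, 7.80 and 7.84, 7.73, 7.74 and 7.70 and 9.28, 9.37 and 9.13. The protease inhibitor gene Wfdc5 and the zinc transporter gene Slc39a8 rose by 1.51 and 1.33. Grb10, an adaptor that restrains insulin and IGF receptor signalling, was the 1 such gene that was lower, at 9.32, 9.08 and 9.09, 9.01, 8.83 and 8.80 and 8.09, 8.02 and 8.14 in the same order (-1.08 ± 0.078).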

How the data were processed

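Total RNA was measured on the Affymetrix Mouse Gene 1.0 ST array. The deposited values are log2 expression made by the authors with RMA, per the submitters' processing notes; the sources used here do not say whether all 12 arrays went through 1 run. Of 35511 transcript clusters 21789 had a single gene symbol. Clusters had to exceed the 30th percentile of the array on 3 or more arrays, and a gene with several was represented by the one with the highest mean, leaving 15868 genes. Group means over the 12 arrays were estimated in limma 3.58.1 under R 4.3.3 (eBayes, 8 residual and 8.02 prior degrees of freedom, Benjamini-Hochberg over all genes, two-sided, called at 0.05), after a test on simulated data. Precision is limited by having 3 arrays a group.

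The members, gene lists and alternatives were chosen with earlier results of these data known. Named genes were the largest rises and falls, the largest bounds, genes ranked by their level in untreated MT-HGF cells, and the 3 largest called members of each list; other list members were named for their role after their values were seen. Promoters are RefSeq sequences of GRCm38.p6. Alternatives were the filter, scaling, variance model, array weights, replicate block, cluster choice, the 6 arrays alone and each array left out. No scanner files were used here.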

Additional observations from a re-analysis of the deposited data

How the results depend on the processing

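Of 696 named or listed genes 509 were called against wild type; 454 kept the call in every setting that tested them, 55 lost it in at least 1 and 0 changed direction; the stricter filter tested 491 of the 509. The genes ranked by size kept theirs. Leaving out each array in turn gave 2304 to 2744 genes higher and 3493 to 4197 lower. With array weights, which put the treated replicate 3 at 0.272 and the wild-type replicate 3 at 4.929 and stopped before full convergence, 4367 were higher and 5630 lower. Asking also for at least 1 log2 unit left 434 and 158. The replicate numbers showed no pairing of the treated arrays. Their deviations correlated at -0.11, 0.222 and -0.134 with wild-type and at -0.085, 0.052 and -0.266 with untreated arrays of the same number. Untreated and wild-type arrays correlated at 0.528, 0.046 and 0.354, so some pairing between these groups is possible. With the replicate block 2751 were higher and 4208 lower. Apart from that size limit, 37.9% to 43.7% of calls were higher under each setting. List counts of 3 or more that moved over 1.5 times were those of FOXO targets, basal layer, interferon and small RNA genes; with array weights 7 FOXO targets were lower, 6 basal and 8 interferon genes higher, and 45 small RNA genes higher and 37 lower. Counts of 2 or fewer also moved by 1 without some single arrays in the HGF and MET, spinous, proline-rich, NF-kappaB, TGF-beta, cell cycle, p53, hypoxia, fatty acid, metallothionein and retinoid lists. The 0 of 25 TGF-beta list members higher became 2 with weights. Values near background understate differences.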
